A study of Mus musculus with 2 samples.

Results

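Aminoacyl-tRNA synthetases are the enzymes that attach each amino acid to its tRNA. The 38 genes described here were taken by name and comprise 20 cytosolic synthetase genes, 16 mitochondrial synthetase genes and the scaffold genes Aimp1 and Aimp2. All 38 were found by Ensembl identifier among 43346 Ensembl genes in the deposited tables, and the rule that lists them uses names and no measured value. The data are paired-end RNA-seq of RNA labelled polyadenylated from the mouse erythroid line G1E-ER4, an immortalized line labelled male. Its parent line, G1E, lacks Gata1, and G1E-ER4 carries GATA1 joined to an estrogen receptor's ligand-binding domain, which makes its activity depend on estradiol. Both libraries are labelled as cells with Gata1 restored and with differentiation driven by estradiol, without a dose or a duration. They form 1 group of 2 replicates that cite the same biosample, so the spread between them may be technical, and no condition could be compared. The question is therefore which synthetases these cells expressed, at what level and in which transcript models.

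Synthetases fall into 2 structural classes with unrelated catalytic folds, class I and class II. In animals several cytosolic synthetases assemble with the Aimp proteins into the multisynthetase complex, whereas the mitochondrial enzymes are encoded by nuclear genes and imported to charge the tRNAs of the mitochondrial genome. Gars and Kars each encode the enzyme of both compartments, and mitochondrial glutaminyl-tRNA is made indirectly, by the GatCAB amidotransferase. Many cytosolic synthetase genes are known targets of ATF4, the transcription factor that responds to amino acid shortage and to the haem-regulated kinase of red cell precursors.

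The gene tables held 68901069 and 51923111 rounded counts in replicates 1 and 2, and the synthetase and Aimp genes took 0.447% and 0.491% of them. Of the erythroid markers, Gata1 stood at 1498 and 2430 TPM (a length-normalized abundance that sums to the same total in each library) and Klf1, an erythroid transcription factor, at 479 and 376 TPM. The Gata1 level can include the introduced construct, so by itself it does not mark the cell type. None of 15 markers of other cell types reached 1 TPM in both libraries, their levels summed to 0.16 and 0.36 TPM, and 7 were at 0 in both.

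Nearly the whole set was expressed. In both libraries 37 of the 38 genes stood at 1 TPM or more, the level taken as detected, against 39.0% of 21474 protein-coding genes. The exception was Wars2, which encodes the mitochondrial tryptophanyl enzyme. Levels of 10 TPM or more in both libraries were found for 29 genes and of 100 TPM or more for 7, namely Vars, Dars, Sars, Farsa, Gars, Aimp2 and Vars2. The mean level of 23 genes lay above the median of detected protein-coding genes, 20.5 TPM. Cytosolic synthetases had a median of 70.2 TPM (61.3 in replicate 1 and 68.5 in replicate 2, n = 20 genes), and mitochondrial synthetases had a median of 17.6 TPM (16.9 and 15.6, n = 16 genes). In summed level the cytosolic genes reached 2332 and 2591 TPM and the mitochondrial genes 498 and 446 TPM. Levels depended on which transcript models were counted. Over the coding models of the GENCODE basic set alone (here basic coding models) the medians were 43.8 TPM for cytosolic and 11.7 TPM for mitochondrial genes.

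**Figure D1:**
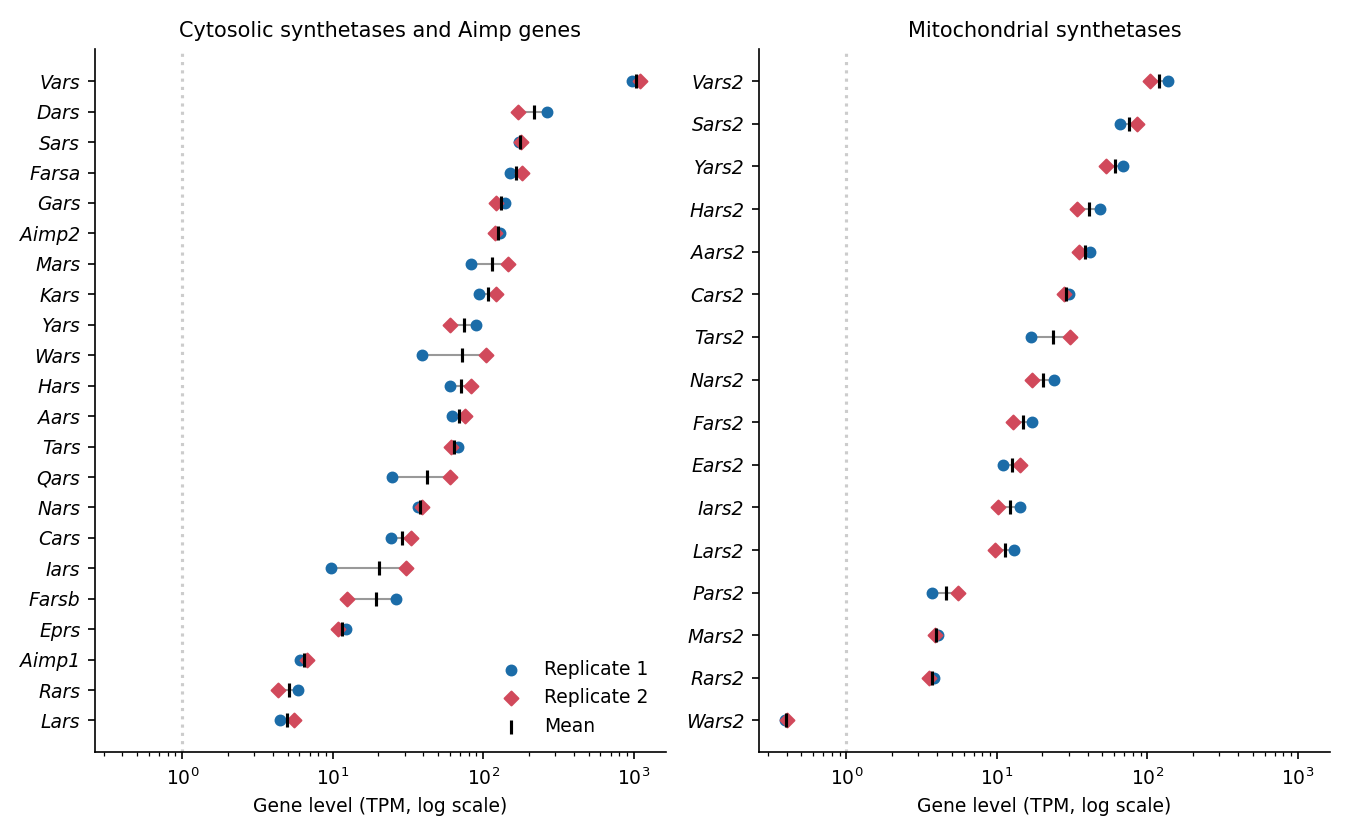
Level of each gene in TPM (log scale) in replicate 1 (circles) and replicate 2 (diamonds), with the mean as a bar; the dotted line marks 1 TPM. Vars lies far to the right of all other genes, and Wars2 alone lies left of the dotted line.

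Vars, the cytosolic valyl-tRNA synthetase and a class I enzyme, was the most abundant. Replicate 1 held 969 TPM and replicate 2 held 1093 TPM, or 1031 ± 87.9 TPM on average (SD, n = 2), so the libraries lay close together. The gene (ENSMUSG00000007029) lies on the plus strand of chromosome 17, from 35000987 to 35016322 in mm10. Its level was 3.68 times that of the next gene in replicate 1 and 6.03 times in replicate 2, and it made up 32.7% and 34.6% of the summed level of all 38 genes. Part of that level sat in short models. Vars-213, a coding model of 819 bases outside the basic set, held 466 and 450 TPM, whereas the basic coding model Vars-201 of 4137 bases held 352 and 360 TPM. By basic coding models alone Vars still ranked first, at 1.34 and 2.07 times the next gene. Reads per kilobase of its longest basic coding model gave 3.15 and 2.76 times.

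Dars, the aspartyl enzyme of the multisynthetase complex, came next with 263 and 170 TPM, a mean of 216 ± 65.8 TPM (SD, n = 2), and was lower in replicate 2. Dars-202, a model of only 645 bases, held 94.8% and 95.7% of this. Per kilobase of the longest basic coding model of 2175 bases, Dars moved from rank 2 to rank 11 of the 38. Sars, the seryl enzyme, stood at 173 and 178 TPM, and its mean of 176 ± 3.77 TPM (SD, n = 2) had the smallest spread for its size of the 7 genes above 100 TPM. Farsa, the catalytic subunit of the phenylalanyl enzyme, stood at 150 and 181 TPM (166 ± 22.1, SD, n = 2). The differences from Dars to Sars and from Sars to Farsa were each smaller than the larger SD of the 2 genes. Farsa is joined in the enzyme by the product of Farsb, which stood at 26.2 and 12.3 TPM (19.3 ± 9.81, SD, n = 2). By gene level Farsa was thus 5.72 times as abundant as its partner subunit in replicate 1 and 14.7 times in replicate 2. Most of Farsb sat outside basic coding models, with 66.6% and 45.5% in the coding model Farsb-203 of 970 bases and 21.1% and 19.0% in Farsb-204, a model of the nonsense-mediated decay class. By basic coding models alone Farsa was 40.8 and 36.7 times as abundant.

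Gars (ENSMUSG00000029777), the glycyl enzyme of both compartments, stood at 139 and 121 TPM (130 ± 13.0, SD, n = 2) and has a single transcript model in the tables. Kars (ENSMUSG00000031948), the lysyl enzyme of both compartments, stood at 93.2 and 122 TPM (108 ± 20.4, SD, n = 2). The cytosolic and the mitochondrial lysyl enzyme are known to arise by alternative splicing, and the models in use differed between the libraries. Kars-201 of 2007 bases held 89.4 and 70.7 TPM, whereas Kars-202 of 2156 bases held 3.59 and 45.2 TPM. Which of these models gives the mitochondrial form is not stated in the tables used here.

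At the low end of the cytosolic genes by mean gene level were Lars, Rars and Eprs, all members of the multisynthetase complex. Lars, the leucyl enzyme, which is also known as a leucine sensor for mTORC1, stood at 4.48 and 5.50 TPM (4.99 ± 0.72, SD, n = 2). Rars, the arginyl enzyme, stood at 5.85 and 4.31 TPM (5.08 ± 1.09, SD, n = 2). Lars was the lower of this pair in replicate 1 and the higher in replicate 2, so their order was not resolved. Eprs, 1 gene for both the glutamyl and the prolyl enzyme, stood at 12.3 and 10.9 TPM (11.6 ± 1.02, SD, n = 2), above both in each library. In replicate 1 Iars was below Eprs, at 9.79 TPM. By basic coding models alone the lowest cytosolic mean was that of Farsb, outside the complex, at 3.745 TPM. Mars at 5.57 TPM and Qars at 9.045 TPM then also lay below Eprs at 11.065 TPM. Of the 19 steps between neighbours in the order of cytosolic genes by mean gene level, 5 exceeded the larger SD of the pair. The order was the same in both libraries for 8 of the 19.

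Between these ends lay several cytosolic genes of similar level. Yars stood at 89.0 and 60.1 TPM, Hars, the histidyl enzyme, at 60.4 and 82.3 TPM, and Aars, the alanyl enzyme, at 62.2 and 76.1 TPM. Tars, the threonyl enzyme, followed at 67.4 and 60.8 TPM. No step from Yars through Wars, Hars and Aars to Tars exceeded the larger SD of its 2 genes, so their order was not resolved. Nars, the asparaginyl enzyme, was lower and steady at 37.1 and 39.0 TPM (38.04 ± 1.38, SD, n = 2), above Cars, the cysteinyl enzyme, at 24.3 and 33.3 TPM (28.8 ± 6.39, SD, n = 2).

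The synthetases of the multisynthetase complex were not expressed at one level. Among its 8 synthetase genes, which are Dars, Eprs, Iars, Kars, Lars, Mars, Qars and Rars, the highest level was 58.7 times the lowest in replicate 1 and 39.4 times in replicate 2. Their median was 31.3 TPM (18.5 and 45.4), and the 12 cytosolic genes outside the complex had a median of 71.5 TPM (64.8 and 79.2). The complex members thus had the lower median in both libraries. By structural class, the 9 cytosolic class I genes had a median of 42.4 TPM (24.7 and 60.0) and the 10 class II genes 89.5 TPM (80.3 and 101.6). Eprs holds an enzyme of each class and was left out of that split.

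Both scaffold genes were detected, at very unequal levels. Aimp2 stood at 129 and 120 TPM (124 ± 6.43, SD, n = 2) and Aimp1 at 6.05 and 6.75 TPM (6.40 ± 0.49, SD, n = 2). By gene level Aimp2 was 21.3 and 17.8 times as abundant as Aimp1, a difference larger than the spread between libraries, and by basic coding models alone it was 6.23 and 10.9 times as abundant. Aimp2-204, a retained-intron model (a GENCODE class for transcripts that keep intronic sequence), held 70.7% of Aimp2 in replicate 1 and 38.5% in replicate 2. Aimp2 also shares 29.4% of its exonic bases with Eif2ak1, the haem-regulated kinase gene, on the opposite strand. Since it is not given whether counting used strand, reads of that stretch cannot be told apart. Eif2ak1 itself had 3202 and 1685 counts.

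Among the mitochondrial synthetases Vars2, again the valyl enzyme, led by gene level with 136 and 104 TPM (120 ± 22.7, SD, n = 2). It did not lead by the other measures, since it ranked 20 of the 38 by basic coding models and 15 by reads per kilobase, where Sars2 ranked 7 by both. The gene (ENSMUSG00000038838) lies on the minus strand of chromosome 17, from 35655634 to 35667592 in mm10, 639 kb from Vars. Sars2, the seryl enzyme, followed with 65.6 and 84.8 TPM (75.2 ± 13.5, SD, n = 2), and Yars2, the tyrosyl enzyme, with 68.7 and 53.0 TPM (60.9 ± 11.1, SD, n = 2). Sars2 and Yars2 stood in opposite order in the 2 libraries. Of 15 steps between neighbours in the mitochondrial order, 8 exceeded the larger SD of the pair. The step from Sars2 to Yars2 is among them although it turned between libraries. The order was the same in both libraries for 8 of the 15 steps.

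By mean gene level the lowest mitochondrial genes were Wars2, Rars2 and Mars2. Wars2 (ENSMUSG00000004233) stood at 0.39 and 0.40 TPM, from 99 and 59 counts, and was below all other synthetases in both libraries. Such a level averages over all cells, so few expressing cells and little RNA per cell cannot be told apart. Rars2, the arginyl enzyme, stood at 3.81 and 3.56 TPM (3.69 ± 0.18, SD, n = 2). Mars2, the methionyl enzyme, stood at 4.08 and 3.85 TPM (3.97 ± 0.16, SD, n = 2), by a single model of 11294 bases. The other 10 mitochondrial genes, Aars2, Cars2, Ears2, Fars2, Hars2, Iars2, Lars2, Nars2, Pars2 and Tars2, had means from 4.61 to 41.1 TPM. Within this range Aars2 stood at 41.8 and 35.1 TPM and Cars2 at 29.9 and 27.9 TPM, each with a single model. Nars2 stood at 23.8 and 17.0 TPM and Fars2 at 17.1 and 12.7 TPM, both lower in replicate 2. Ears2 at 10.97 and 14.2 TPM and Iars2 at 14.2 and 10.1 TPM did not differ beyond their spread.

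Set beside each other by amino acid, the cytosolic gene was the more abundant of most pairs. For 16 pairs that charge with the same amino acid, 12 had the higher level in the cytosolic gene in both libraries, 1 had it in the mitochondrial gene and 3 differed between libraries. The median ratio of cytosolic to mitochondrial gene was 1.55 in replicate 1 and 2.13 in replicate 2. The difference of means exceeded the larger SD for 12 pairs. Eprs entered both the glutamate and the proline pair, so these share a gene. Dars, Gars, Kars, Qars and Farsb have no pair of their own here.

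**Figure D2:**
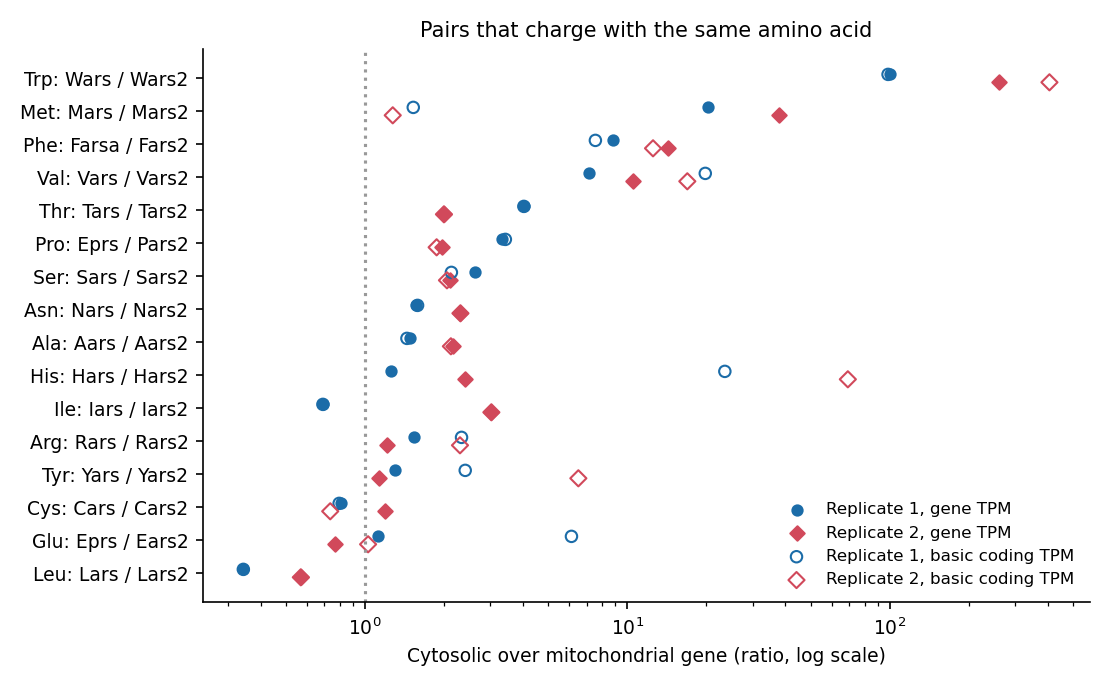
Ratio of the cytosolic to the mitochondrial gene of each amino acid (log scale) in replicate 1 (circles) and replicate 2 (diamonds), from gene TPM (filled) and from basic coding models alone (open); the dotted line marks equal levels. Tryptophan lies farthest right, leucine is left of the line in both libraries, and the open and filled symbols of methionine and histidine lie far apart.

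Tryptophan gave the widest ratio. Wars, the cytosolic tryptophanyl enzyme and a known interferon-induced gene, stood at 38.9 and 104.4 TPM (71.7 ± 46.3, SD, n = 2), which is 99.7 and 261 times Wars2. The methionine pair followed at 20.2 and 37.7, but by basic coding models alone it was 1.53 and 1.28, since Mars sat mostly in retained-intron models. Phenylalanine, with Farsa over Fars2, stood at 8.80 and 14.2. All 3 ratios were wider in replicate 2. Valine stood at 7.13 and 10.5, threonine at 4.03 and 2.00, proline at 3.33 and 1.97 and serine at 2.63 and 2.10. Asparagine, alanine and arginine had ratios from 1.21 to 2.29. Leucine was the exception to the direction. Lars2, the mitochondrial leucyl enzyme, stood at 13.0 and 9.66 TPM (11.3 ± 2.38, SD, n = 2), so the cytosolic gene was at 0.344 and 0.569 of it.

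Pairs whose order differed between libraries were isoleucine, cysteine and glutamate. Iars over Iars2 was 0.690 and 3.03, Cars over Cars2 was 0.811 and 1.20, and Eprs over Ears2 was 1.12 and 0.767. Tyrosine was at 1.30 and 1.13 by gene level, 0.715 and 1.17 by reads per kilobase of the longest basic coding model, and 2.41 and 6.50 by basic coding models alone, so its ratio depended on the quantity chosen. Histidine went from 1.25 and 2.41 by gene level to 23.5 and 69.1 by basic coding models alone. By basic coding models 13 pairs had the higher level in the cytosolic gene in both libraries and 2 in the mitochondrial gene.

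The share of a gene's level in coding models ranged from all of it, as in Gars and Sars2, to a small part, as in Hars2 and Yars2. The 38 genes had 188 models in the transcript tables, and 11 genes had only 1. The same model led in both libraries for 33 genes, and for 29 it also held at least 50% of the gene in both, against 78.4% of detected protein-coding genes. A retained-intron model led in both libraries for 5 genes, Mars, Yars, Hars2, Vars2 and Yars2. That is 5 of the 26 detected genes of the set with 2 or more models, against 8.65% of all such detected protein-coding genes (6.53% with single-model genes included). Retained-intron models held 22.1% and 24.3% of the summed level of the 38 genes, and 13.3% and 13.9% of that of all detected protein-coding genes. Within the cytosolic genes they held 25.6% and 35.1% of the summed level of class I but 1.86% and 1.83% of class II. The class I level in such models was uneven by gene. Vars held 148 and 278 TPM there, Mars 75.4 and 120.4 TPM and Yars 78.9 and 36.7 TPM. Cars, Qars and Wars ranged from 0.24 to 47.9 TPM, and Iars, Lars and Rars held 0.38 TPM or less. In the mitochondrial genes retained-intron models held 45.2% and 36.3%.

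**Figure D3:**
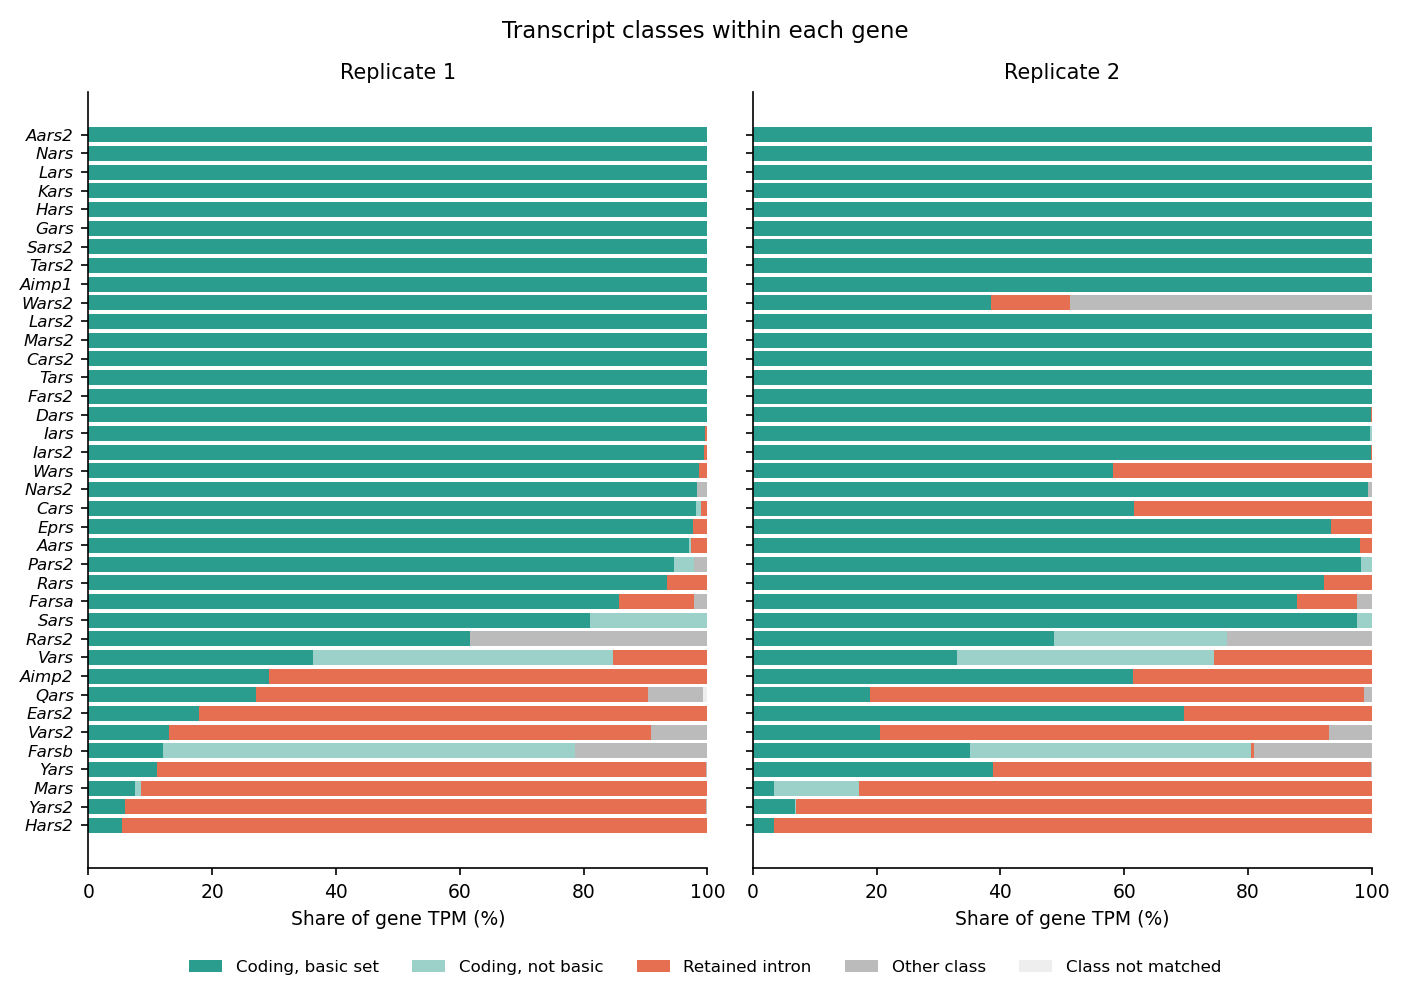
Share of each gene's TPM (percent) by class of transcript model in replicate 1 (left) and replicate 2 (right), ordered by the basic coding share in replicate 1. Hars2, Yars2 and Mars, at the bottom, are retained-intron models for most of their level in both libraries, whereas Wars and Cars show a wide retained-intron share in replicate 2 only.

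Hars2, the mitochondrial histidyl enzyme, showed this most. It stood at 48.1 and 34.1 TPM, of which Hars2-205, a retained-intron model of 772 bases, held 94.6% and 96.5%. Its basic coding models held 2.57 and 1.19 TPM, which ranked Hars2 37 of the 38, where its gene level ranked it 18. Yars2 had 93.8% and 93.1% in Yars2-205 of 1412 bases, with 4.11 and 3.59 TPM in basic coding models. Hars and Hars2 start head to head and overlap by 198 bases on opposite strands, so reads there are also uncertain.

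Mars, the cytosolic methionyl enzyme of the complex, stood at 82.3 and 145 TPM (114 ± 44.5, SD, n = 2). Mars-204, a retained-intron model of 467 bases, held 71.2% and 69.6%, and Mars-205, another of 3065 bases, held 20.2% and 12.9%. The basic coding model Mars-201 held 6.23 and 4.91 TPM, which moved Mars from rank 8 to rank 29. In reads, 79.0% of its counts in each library were assigned to retained-intron models. Vars2 had 71.0% and 66.2% of its level in the retained-intron model Vars2-202 of 722 bases, yet only 39.2% and 31.5% of its counts in such models. TPM divides reads by length, so a short model has the larger TPM for the same reads. Its basic coding level was 17.8 and 21.3 TPM.

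Yars, the cytosolic tyrosyl enzyme, differed between libraries in its models. Yars-202, a retained-intron model of 647 bases, held 87.9% in replicate 1 and 60.4% in replicate 2, and the basic coding models held 9.90 and 23.3 TPM. The retained-intron share was likewise lower in replicate 2 in Aimp2 and in Ears2, the mitochondrial glutamyl enzyme, whose model Ears2-202 held 81.3% in replicate 1 and 29.0% in replicate 2. It was higher in replicate 2 in other cytosolic genes, among them Wars, Cars, Qars and Vars. In Vars all retained-intron models together held 15.3% and 25.4%. Wars-207, a retained-intron model of 698 bases, held 0.04 TPM in replicate 1 and 43.0 TPM in replicate 2. Cars-204 was listed at 0 in replicate 1 and stood at 12.7 TPM in replicate 2. Qars-212 held 5.31 and 36.4 TPM. What sets these shares was not tested.

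Between the 2 libraries most of the set stayed within 1.5-fold. The ratio of replicate 2 to replicate 1, from counts scaled by TMM (edgeR's trimmed-mean library scaling), passed 1.5-fold for 6 of 38 genes, against 23.4% of the 10863 genes that averaged 10 counts or more. Of these, 5 were higher in replicate 2, where 16% of all genes were, and 1 was higher in replicate 1, where 7.4% were. The median of the log2 ratio was 0.12 over the 38 genes and -0.01 over all genes. Its median size was 0.35 and 0.30. Among cytosolic genes the median log2 ratio was 0.36, with 14 of 20 higher in replicate 2. Among mitochondrial genes it was -0.19, with 9 of 16 lower in replicate 2. The set's share past 1.5-fold was thus no larger than the background share, although the median size of its log2 ratio was the larger. Those shares are not matched for depth, since the background takes in genes averaging 10 counts and the lowest member count was 59. The median coefficient of variation of the members' TPM was 18.5%.

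**Figure D4:**
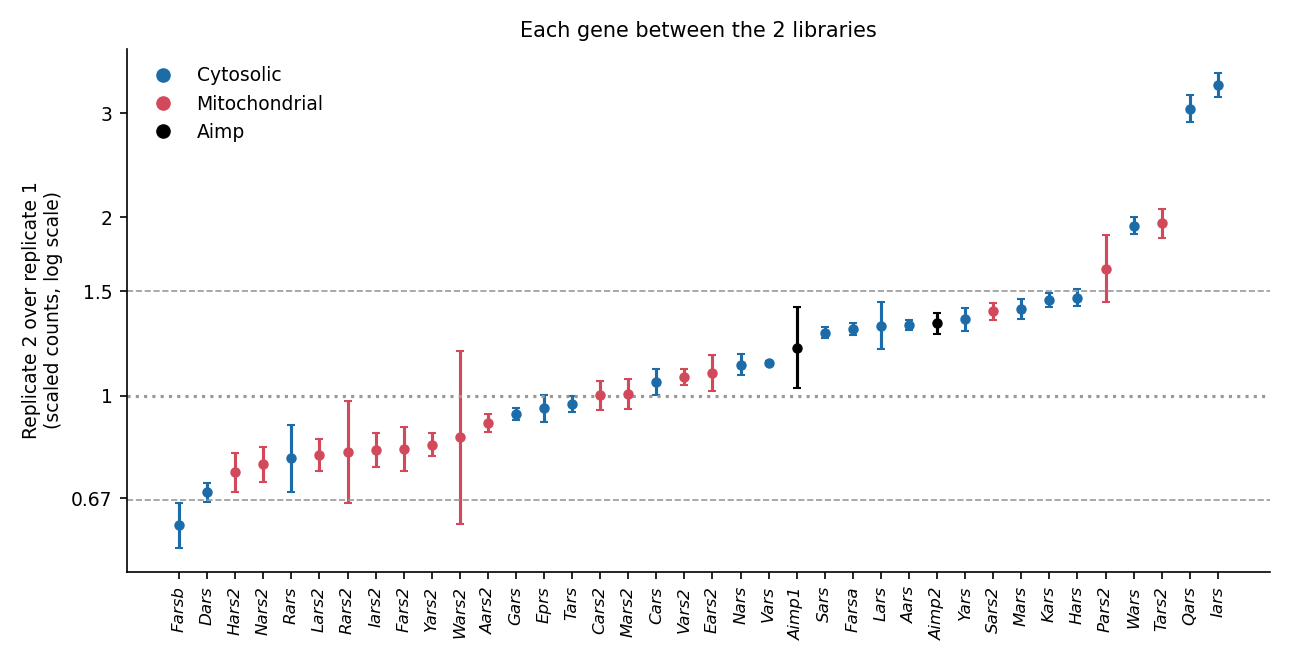
Ratio of replicate 2 to replicate 1 in TMM-scaled counts for each gene (log scale), with 95% counting intervals as bars, coloured by group; dashed lines mark 1.5-fold either way. Iars and Qars lie above 3, and Farsb is the only gene below the lower dashed line.

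Iars, the isoleucyl enzyme of the complex, differed most. It stood at 9.79 and 30.7 TPM (20.2 ± 14.8, SD, n = 2), and its scaled counts were 3.35 times higher in replicate 2 (95% counting interval 3.19 to 3.51). The coding model Iars-206 stood at 9.75 and 18.7 TPM, and Iars-201, another coding model, was listed at 0 in replicate 1 and stood at 11.9 TPM in replicate 2. Iars shares 14.5% of its 31-base words with Gm4849, which had 1 and 0 counts. Qars, the glutaminyl enzyme of the complex, stood at 24.7 and 60.0 TPM (42.4 ± 25.0, SD, n = 2), with scaled counts 3.05 times higher in replicate 2 (2.89 to 3.22). Of the Qars counts, retained-intron models held 36.7% in replicate 1 and 64.1% in replicate 2, and basic coding models 59.3% and 35.7%. Iars and Qars were the only members past 2-fold, both higher in replicate 2, against 9.73% of all genes past 2-fold either way and 7.73% higher in replicate 2.

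Tars2, the mitochondrial threonyl enzyme, stood at 16.7 and 30.5 TPM (23.6 ± 9.70, SD, n = 2), a ratio of 1.95 in scaled counts (1.85 to 2.07). The ratio of Wars was 1.94 (1.87 to 2.00). Pars2, the mitochondrial prolyl enzyme, stood at 3.69 and 5.52 TPM (4.61 ± 1.29, SD, n = 2), a ratio of 1.64 (1.44 to 1.87) whose interval crosses 1.5. Farsb was the exception in direction, with a ratio of 0.604 (0.553 to 0.658). Counting error is smaller than these differences, and with 1 library on each side they have no replicate check. Just inside 1.5-fold lay Hars at 1.46 (1.41 to 1.51), Kars at 1.45 (1.41 to 1.49) and Dars at 0.686 (0.662 to 0.712).

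Levels in TPM and scaled counts pointed in opposite directions for Yars, Aimp2 and Vars2, whose counting intervals lie above 1. For Yars the ratio of replicate 2 to replicate 1 was 0.675 in TPM and 1.35 in scaled counts (1.29 to 1.41), and the deposited gene length, a mean over models weighted by their abundance, was 901 and 1533 bases. For Aimp2 these ratios were 0.930 and 1.32 (1.27 to 1.38), with lengths of 764 and 955 bases. For Vars2 they were 0.764 and 1.07 (1.04 to 1.11), with lengths of 1284 and 1631 bases. The direction of these 3 genes between libraries therefore rests on the quantity chosen. For Vars2 the direction in counts also rests on the scaling, since its log2 ratio was 0.10 with TMM and -0.002 with library totals.

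Promoters were compared because several cytosolic genes are known ATF4 targets. RefSeq windows of 300 bases on GRCm38.p6, the build of mm10, from 250 bases before to 50 after the start site, were found for 29 of the 38 genes. The 9 genes without a window are Cars, Hars, Lars, Nars, Rars, Vars, Wars, Hars2 and Pars2. In all, 5 motifs were searched as letters on both strands: CARE, the element bound by ATF4 with CEBP factors (TGATGNAA), the E-box bound by MYC with MAX (CACGTG), the core of NRF1, a factor of nuclear genes for mitochondrial proteins (GCGCATGCG), an ETS core (CCGGAAG) and a GATA motif (AGATAA). No matches of different motifs overlapped in these genes. A match is a description of the letters and not evidence of binding.

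CARE was found in Aars, Gars, Iars, Tars and Yars, all cytosolic. That is 5 of 29 genes (17.2%), against 3.97% of 32851 windows, and 5 of 13 cytosolic against 0 of 14 mitochondrial genes with a window. These 5 genes had means from 20.2 to 130 TPM. With the free base set to C (TGATGCAA) 4 genes matched, Aars, Iars, Tars and Yars, against 0.895% of windows. The NRF1 core was found in 2 mitochondrial genes, Vars2 and Wars2, the highest and the lowest of that group by gene level, which is 6.90% of the 29 against 1.75%. An ETS core was found in 11 genes of both compartments (37.9%, against 8.86%), namely Aimp1, Aimp2, Cars2, Farsa, Gars, Kars, Mars, Mars2, Rars2, Sars and Sars2. The E-box was found in Aars, Ears2, Farsb, Iars and Tars (17.2%, against 7.15%), and the GATA motif in Aars2, Farsb and Sars2 (10.3%, against 11.2%).

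The windows of the 4 genes with CARE of highest gene level and of the mitochondrial genes with the highest and lowest gene level are shown with the matches in capitals, 5′ to 3′ on the gene's strand. Gars is on the plus strand at chr6:55037751-55038050, Yars on the plus strand at chr4:129189653-129189952, Aars on the plus strand at chr8:111033592-111033891, and Tars on the minus strand at chr15:11399609-11399908. Vars2 is on the minus strand at chr17:35667543-35667842 and Wars2 on the plus strand at chr3:99140840-99141139. Counting the base before the start site as -1 and the first transcribed base as 1, the CARE match began at -30 in Gars, at 4 in Yars, at -112 and 10 in Aars and at -15 in Tars. The E-box began at -146 in Aars and 20 in Tars, and an ETS core at -126 in Gars. The NRF1 core began at -47 and -21 in Vars2 and at -64 in Wars2.
Gars: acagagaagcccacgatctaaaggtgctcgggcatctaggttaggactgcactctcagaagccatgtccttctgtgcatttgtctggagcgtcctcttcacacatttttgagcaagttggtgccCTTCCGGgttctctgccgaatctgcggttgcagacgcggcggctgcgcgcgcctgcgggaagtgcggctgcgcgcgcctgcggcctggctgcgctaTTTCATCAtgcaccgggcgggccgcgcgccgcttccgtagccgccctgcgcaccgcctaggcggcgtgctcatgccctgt
Yars: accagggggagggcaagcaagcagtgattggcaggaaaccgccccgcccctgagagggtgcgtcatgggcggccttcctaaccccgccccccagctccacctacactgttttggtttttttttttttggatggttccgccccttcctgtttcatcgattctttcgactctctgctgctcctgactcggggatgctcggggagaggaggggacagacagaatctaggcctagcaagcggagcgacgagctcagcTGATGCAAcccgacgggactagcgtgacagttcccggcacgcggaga
Aars: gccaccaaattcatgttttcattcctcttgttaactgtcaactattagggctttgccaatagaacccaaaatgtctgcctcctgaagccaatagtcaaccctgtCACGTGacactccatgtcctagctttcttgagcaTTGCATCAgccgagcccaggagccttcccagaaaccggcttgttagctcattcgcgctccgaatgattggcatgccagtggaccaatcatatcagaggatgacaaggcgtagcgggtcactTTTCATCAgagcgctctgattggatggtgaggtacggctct
Tars: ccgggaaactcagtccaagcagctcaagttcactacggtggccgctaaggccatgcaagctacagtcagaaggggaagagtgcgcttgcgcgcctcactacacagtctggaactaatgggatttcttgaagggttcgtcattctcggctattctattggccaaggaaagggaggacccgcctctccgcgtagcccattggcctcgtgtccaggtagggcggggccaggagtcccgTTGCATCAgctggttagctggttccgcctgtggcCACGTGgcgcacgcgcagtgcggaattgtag
Vars2: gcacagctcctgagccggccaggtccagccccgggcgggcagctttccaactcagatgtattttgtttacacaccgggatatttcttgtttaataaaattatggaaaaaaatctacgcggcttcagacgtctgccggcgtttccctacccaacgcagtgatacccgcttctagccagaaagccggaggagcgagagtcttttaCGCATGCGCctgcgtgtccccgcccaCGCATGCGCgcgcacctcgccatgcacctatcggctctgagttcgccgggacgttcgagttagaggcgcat
Wars2: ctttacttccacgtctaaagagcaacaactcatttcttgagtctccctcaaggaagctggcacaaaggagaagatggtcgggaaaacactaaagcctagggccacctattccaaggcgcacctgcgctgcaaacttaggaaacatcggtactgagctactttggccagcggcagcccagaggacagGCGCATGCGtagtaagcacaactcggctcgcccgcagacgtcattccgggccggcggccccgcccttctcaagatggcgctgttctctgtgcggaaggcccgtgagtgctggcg

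The genes that supply and process tRNA around the synthetases were expressed at lower typical levels than the cytosolic synthetases. Charging partners comprised 13 genes, among them the GatCAB subunits, the formyltransferase of mitochondrial initiator tRNA and proofreading factors. All 13 were detected and their median was 13.5 TPM. By mean level they ranged from Sephs2, which makes selenophosphate, at 119.9 and 83.3 TPM to Sepsecs, which completes selenocysteinyl-tRNA, at 1.56 and 1.36 TPM, although Gatb, a GatCAB subunit, was lower in replicate 1 at 1.01 TPM. For tRNA maturation and export 17 of 18 genes reached 1 TPM in both libraries, and the list's median was 13.9 TPM. Tsen15, a subunit of the tRNA splicing endonuclease, was highest at 143 and 155 TPM, and Elac1, a tRNA 3′ processing nuclease, was lowest at 0.66 and 0.69 TPM. For RNA polymerase III, which transcribes tRNA genes, and its factors 18 of 19 matched genes reached that level, with a list median of 18 TPM. Maf1, the repressor of RNA polymerase III, was highest at 582 and 438 TPM, and Polr3g, a subunit, was lowest by its mean, at 1.63 and 0.85 TPM. In replicate 1 Gtf3c3 at 1.39 TPM and Polr3k at 1.51 TPM were lower. Past 1.5-fold between libraries, where 16% of all genes were higher and 7.4% lower in replicate 2, were 3 charging partners, all higher in replicate 2, 7 maturation genes (4 higher and 3 lower) and 1 RNA polymerase III gene, lower in replicate 2.

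**Figure D5:**
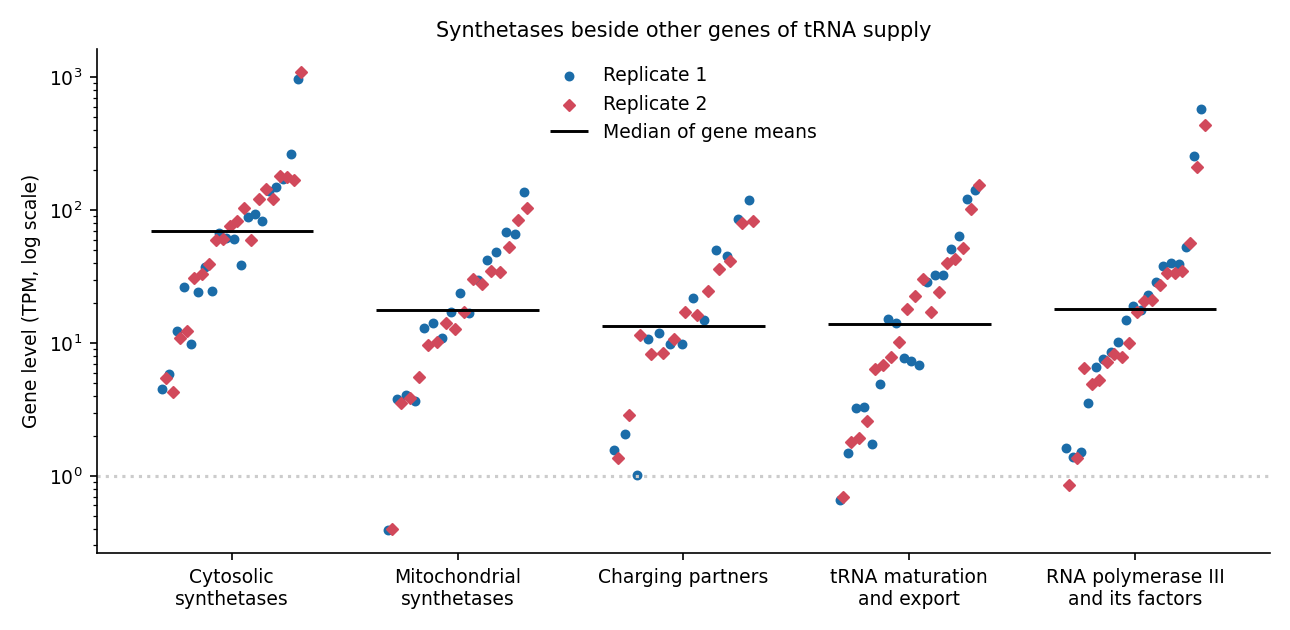
Level of each gene in TPM (log scale) in replicate 1 (circles) and replicate 2 (diamonds) for the synthetases and 3 lists of tRNA genes, ordered by mean within each group; black bars are medians of the gene means and the dotted line marks 1 TPM. The cytosolic synthetases have the highest bar at 70.2 TPM, and the other 4 bars lie between 13.5 and 18 TPM.

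In the genome the set is scattered. Besides Hars with Hars2 and the Vars and Vars2 pair, Iars2 and Eprs lie 33.6 kb apart on opposite strands of chromosome 1, and Aars and Kars lie 936 kb apart on chromosome 8. In exonic bases 15 members overlap another gene on the opposite strand and 1 on the same strand. The latter is Aars, which shares 14.3% of its exonic bases with Exosc6. Exosc6 was not found among the genes counted here, so reads of that stretch cannot be told apart. Iars2 shares 22.9% of its exonic bases with Rab3gap2, which had 1606 and 1510 counts, and Mars shares 1.99% with Ddit3, the stress-response factor CHOP, which had 2345 and 2410 counts. GC content and level went together across the members as a description, with a Spearman rho of 0.477 over 38 genes, 0.507 over the 20 cytosolic and 0.538 over the 16 mitochondrial genes. These points share their libraries, and the part of GC content in the measured levels was not tested.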

How the data were processed

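RNA labelled polyadenylated was sequenced in 2 libraries of G1E-ER4 cells, each with 1 deposited table of genes and 1 of transcripts. Per the file headers, expected counts and posterior mean counts are estimates, so they can hold fractions. TPM, posterior mean TPM and FPKM were deposited by the authors as abundances per length. The authors' isoform share gives each transcript as a percent of its gene. Per the labels and readme files, reads were placed on mm10 with GENCODE M4, while symbols, transcript classes and positions used here are those of GENCODE M21. In the sources used here, aligner, quantifier and use of strand are not given.

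The members and gene lists were chosen with earlier results of these data known. Levels are the mean TPM of the 2 libraries with its SD. Detection needed 1 TPM in both. For ratios between libraries expected counts were rounded to whole numbers and scaled by TMM in edgeR 4.0.16 (R 4.3.3) over genes averaging 10 counts or more, with 95% Clopper-Pearson intervals that cover counting error only. The ratio was tested on simulated counts that carry counting error only. That test says nothing of the spread between libraries or of read assignment between models. No p-value was computed, since 1 group of 2 libraries allows no test. All else was computed in Python 3.11.15 with pandas 2.3.3 and scipy 1.17.1. Basic coding models are the protein-coding models of the M21 basic set, which can be short.

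Named genes were the 3 highest and 3 lowest of each compartment, Aimp1, Aimp2, Gars, Kars and Wars, members past 1.5-fold, pairs whose order differed, the 3 pairs of highest and lowest ratio, and the ends of each tRNA list. Promoters were shown by the same kind of rule. Other members and pairs with values, genes named for transcript models, overlaps, position or opposite directions, those just inside 1.5-fold, and Gatb, Gtf3c3 and Polr3k were picked after their values were seen. Gtf3c2 found no match. Of the erythroid markers, 1 is not reported here. Protein stretches were planned and are not shown.

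Alternatives were other TPM and count minimums, FPKM, posterior mean values, counts not divided by length, Farsb in place of Farsa, library totals, DESeq2 1.42.0 size factors, each library alone and a stricter motif. Basic coding models alone and counts per kilobase were added after seeing the data.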

Additional observations from a re-analysis of the deposited data

How the results depend on the processing

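Main values were a median of 70.2 TPM for cytosolic and 17.6 TPM for mitochondrial synthetases, a median pair ratio of 1.84 and 2 genes past 2-fold. With either library alone the cytosolic median was 61.3 to 68.5 TPM, the mitochondrial median 15.6 to 16.9 TPM and the pair ratio 1.55 to 2.13. Basic coding models alone, added after seeing the data, gave medians of 43.8 and 11.7 TPM and a pair ratio of 2.29. The pair ratio was 2.69 from depth-scaled counts not divided by length and 2.79 from counts per kilobase, also added. The tyrosine pair turned direction, from a log2 ratio of 0.28 to -0.078 with the former and -0.13 with the latter. From the ratio of TPM 4 genes passed 2-fold, and past 1.5-fold there were 7, with Dars and Mars added and Pars2 lost. Library totals added Dars. At 5 TPM 32 genes were detected and at 10 TPM 29. The cause of these shifts was not tested. At this depth the lowest count was 59, for Wars2, and levels also carry the spread between 2 libraries and the choice of transcript models, which took Mars from 113.8 to 5.57 TPM. No paired analysis was possible because there is 1 group.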
